A study of Mus musculus with 6 samples.

Results

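The named C/D box small nucleolar RNAs (snoRNAs) of HL-1 cells were followed across a chromatin pellet and a soluble nuclear extract. Members were all unique loci of the deposited table with the RNA type snoRNA and a gene name beginning with Snord or Rnu3, which gave 54 of 28660 loci. HL-1 is a mouse cardiomyocyte line of atrial origin, here grown in Claycomb medium with serum and norepinephrine, with no other treatment in the labels. Nuclei were divided biochemically into a chromatin pellet extract (3 libraries) and a soluble nuclear extract (3 libraries), both from the same line, and ERCC spike-in RNAs were added to each fraction. The labels give no genotype, dose or time for either fraction.

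C/D box snoRNAs carry the short conserved boxes C and D and assemble with the methyltransferase fibrillarin, Nop56, Nop58 and a small kink-turn binding protein. Most of them base-pair with precursor ribosomal RNA in the nucleolus and direct methylation of the ribose at the paired position. A few, with U3 as the best known, are needed for cleavage of the precursor instead, and some act on the U6 spliceosomal RNA. In mammals most are cut from introns of host genes, many of which encode ribosomal or nucleolar proteins, while U3, U8 and U13 have their own promoters.

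Each fraction is represented by 1 FPKM value per locus (fragments scaled by transcript length and by the size of the library), the authors' pooled value for its 3 libraries. There is thus no replicate spread, no test could be made for any difference below, and the sequencing depth is unknown. Each fold is the log2 ratio of pellet to soluble FPKM after the pellet value is multiplied by a spike-in factor of 3.37 (the spike-in scale). Without that factor (the FPKM scale) every fold is lower by 1.75. Reading the spike-in scale as an amount assumes equal spike-in per fraction. A mean of both FPKM values of 0.5 or more was required of every locus, and spike-ins above this level scattered about the factor with an SD of 0.12 (n = 47 spike-ins, range -0.28 to 0.23). Of 10 listed cardiomyocyte markers, 9 were measured, with a summed level of 585.0 FPKM in the pellet and 2763 FPKM in the soluble extract. Among the 9, Nppa was the lowest, at 0.208 FPKM in the pellet and 1.63 FPKM in the soluble extract. That was near the level of the fibroblast gene Dcn, at 0.155 and 1.74 FPKM. Fibroblast, endothelial and immune lists summed to 1.31, 2.39 and 0.62 FPKM in the pellet and to 6.04, 6.97 and 0.82 FPKM in the soluble extract.

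Named C/D box snoRNAs lay overwhelmingly on the pellet side. On the spike-in scale 51 of the 54 members exceeded their soluble value by 2-fold or more, 2 were lower by as much (Snord14a and Snord42b) and 1 was within 2-fold (Snord4a). Across all 13917 loci that passed the level filter, 31.9% were that much higher and 10.5% that much lower. All 54 members passed the filter, and none was listed at 0. The members had a median log2 fold of 3.82, which is 14.2-fold, with quartiles at 2.28 and 4.71, and all loci had a median of 0.41. On this scale 37 members had at least 90% of their summed signal in the pellet, with a median of 93.4%.

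The direction did not depend on the spike-in factor for most members. On the FPKM scale 38 of 54 stayed higher in the pellet by 2-fold or more and 3 were lower by as much, whereas 9.66% of all loci were higher and 61.2% lower. The member median was 2.07 on that scale and the median of all loci -1.34. The pellet FPKM exceeded the soluble FPKM in 48 members. Snord111, Snord71 and Snord22 passed 2-fold on the spike-in scale and lay just below equality without the factor, at -0.35, -0.23 and -0.063.

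**Figure D1:**
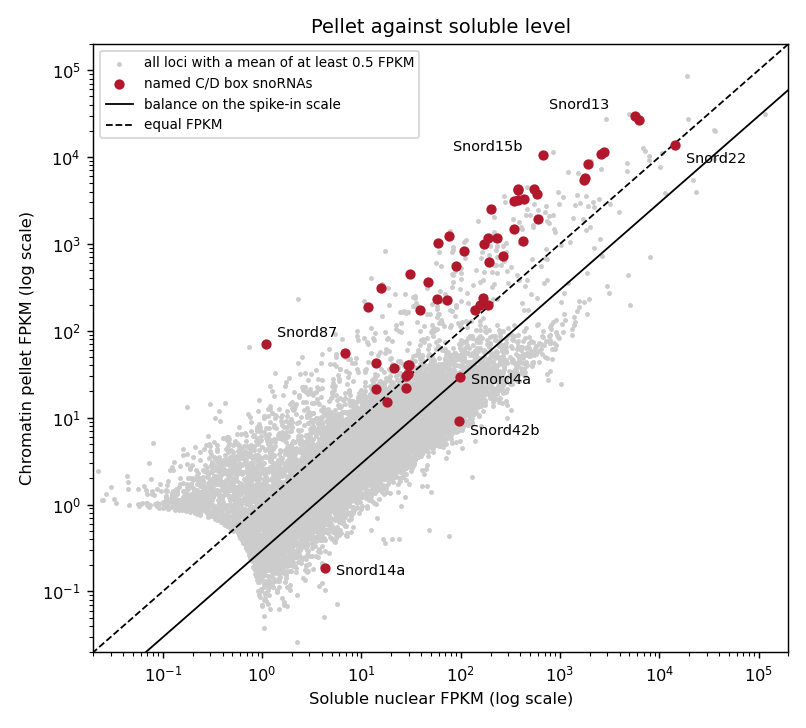
Chromatin pellet FPKM (vertical, log scale) against soluble nuclear FPKM (horizontal, log scale) for all loci past the level filter of 0.5 FPKM (grey) and the 54 named C/D box snoRNAs (red). The solid line marks balance on the spike-in scale and the dashed line equal FPKM; 48 members lie above the dashed line, and Snord14a and Snord42b lie well below the solid one.

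These few RNAs made up a large part of the pellet signal. Together they held 20.04% of the summed pellet FPKM and 4.77% of the summed soluble FPKM, or 31.8% and 26.8% of the signal of all snoRNA loci in the pellet and in the soluble extract. The pellet level ranged from 0.188 FPKM (Snord14a) to 29596 FPKM (Snord13) with a median of 679 FPKM, and the soluble level from 1.10 FPKM (Snord87) to 14403 FPKM (Snord22) with a median of 161 FPKM. The 10 highest members carried 75.8% of the C/D box sum in the pellet. A level of 1000 FPKM or more was reached by 25 members in the pellet and by 8 in the soluble extract. FPKM of RNAs shorter than a sequenced fragment rests on an uncertain effective length, which applies to the level of every member and cancels from its fold only as far as both fractions had like fragment lengths.

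H/ACA box snoRNAs, the class that guides pseudouridylation, had a lower median and a narrower spread. Their median was 3.01, and 33 of 35 named H/ACA members passed 2-fold towards the pellet, 0 towards the soluble extract. The C/D median was higher by 0.82, and this difference has no replicate check. The SD over members was 1.86 for the C/D box class and 1.09 for the H/ACA class. C/D members reached further in both directions, from -2.76 to 7.76, against 0.02 to 5.08 for H/ACA members. Both C/D extremes were scarce in a fraction: Snord14a had 0.188 FPKM in the pellet and Snord87 1.10 FPKM in the soluble extract. Predicted snoRNAs without a family name had a median of 3.33 over 208 loci, and 9 Cajal body RNAs had 3.15. The predicted snoRNAs also spread widely, with an SD of 1.71 and a range of -1.48 to 8.42.

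**Figure D2:**
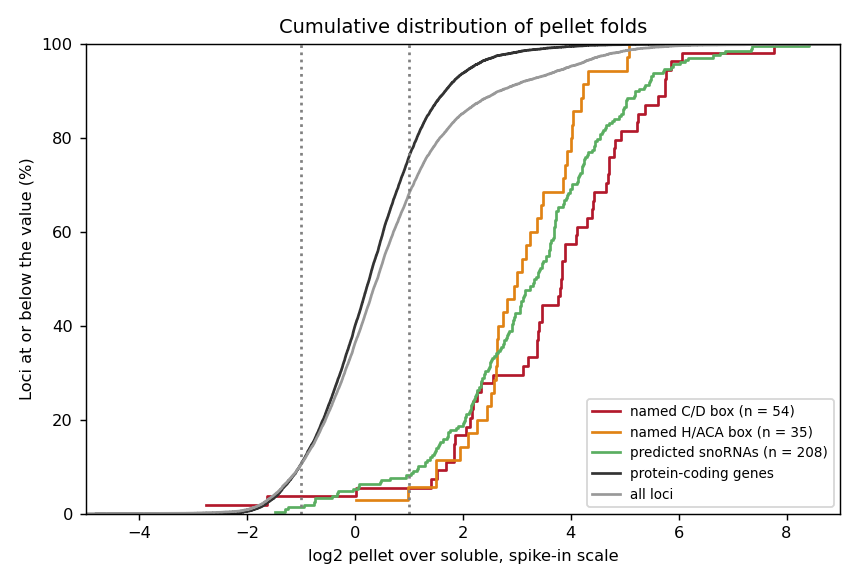
Cumulative share of loci (vertical, in percent) at or below each log2 pellet over soluble value on the spike-in scale (horizontal) for named C/D box snoRNAs, named H/ACA box snoRNAs, predicted snoRNAs, protein-coding genes and all loci, each past the level filter of 0.5 FPKM. Dotted lines mark 2-fold either way; the 3 snoRNA curves run to the right of the others, with medians of 3.82, 3.01 and 3.33 against 0.41 for all loci.

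Among the RNAs of ribosomal RNA processing, those with their own locus in the table clustered tightly. Rnu3a, a U3 RNA required for the early cleavages that release the 18S precursor, had 8350 FPKM in the pellet and 1905 FPKM in the soluble extract (log2 fold 3.89; chromosome 10, 40258468 to 40258679, GRCm38.p6). Snord118 is U8, needed for maturation of the large subunit RNAs, and had 1475 FPKM in the pellet and 347 FPKM in the soluble extract (3.84). Snord13, the U13 RNA, was the most abundant member in the pellet, with 29596 FPKM there and 5743 FPKM in the soluble extract (4.12). Snord104, a 28S guide that also stood as a separate locus, had 26589 FPKM in the pellet and 6283 FPKM in the soluble extract (3.84). The 4 loci thus differed by less than 0.3 on the log2 scale while their pellet levels spanned a wide range. They were the only members whose coordinates in the table were shared with no other locus. Such folds were not confined to them, since the processing RNAs Snord14c and Snord14d, with shared coordinates, had 3.81 and 3.79.

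The U14 copies differed in level and in fold. U14 (Snord14) both guides methylation of 18S RNA and takes part in its processing. Snord14c and Snord14d, in the span of the heat shock cognate gene Hspa8, had 10849 and 11317 FPKM in the pellet and 2607 and 2752 FPKM in the soluble extract. Their log2 folds were 3.81 and 3.79. Snord14e of the same host was 18.1-fold less abundant than Snord14d in the pellet, with 626.5 FPKM there and 191.9 FPKM in the soluble extract, yet had a fold of 3.46. Snord14a, in the span of the ribosomal protein gene Rps13, had only 0.188 FPKM in the pellet and 4.29 FPKM in the soluble extract, a log2 fold of -2.76. It had the lowest pellet level and the lowest fold of all members, while its soluble level was above that of Snord87. Its pellet value alone was under 0.5 FPKM, so it passed the level filter through its soluble value. U14 copies resemble each other, so how fragments were divided between them is uncertain, and this was not tested.

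Snord22 stood apart by its soluble signal. It is U22, an RNA known from frog oocytes to be needed for 18S processing, and lies in the span of the noncoding gene Snhg1. Its levels were 13786.5 FPKM in the pellet and 14403 FPKM in the soluble extract, a log2 fold of 1.69. It alone made up 31.8% of the soluble sum of the 54 members, against 8.26% of their pellet sum. The next highest soluble levels among the members were those of Snord104, at 6283 FPKM, and Snord13, at 5743 FPKM.

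Guides of small subunit methylation had the highest median of the functional groups with more than 1 member. Their assignment follows human orthologues and is partial. It left 10 of the 54 members without a group, with a median of 2.83 and a range of 0.01 to 4.80. The U14 copies were counted with the processing RNAs. Snord32a, a guide of both 18S and 28S RNA (3.39), was kept apart. The 13 members assigned as guides to 18S RNA alone had a median of 4.66. Of these, 12 passed 2-fold towards the pellet and 1 was lower. Snord61, in the span of the RNA-binding protein gene Rbmx, had 314.2 FPKM in the pellet and 15.8 FPKM in the soluble extract (6.07). Snord100, in the span of Rps12, had 1027 FPKM in the pellet and 59.6 FPKM in the soluble extract (5.86). Both were thus far into the pellet, as was Snord82 in the nucleolin gene Ncl, with 446.2 FPKM in the pellet and 30.6 FPKM in the soluble extract (5.62). Snord98 had 187.9 FPKM in the pellet and 11.6 FPKM in the soluble extract (5.77). Its RefSeq span of 28 bases was the shortest of the 53 members with a span. At the other end, Snord93 had 172.2 FPKM in the pellet and 139.5 FPKM in the soluble extract (2.06). Snord42b was the exception to the direction, with 9.19 FPKM in the pellet and 95.8 FPKM in the soluble extract (-1.63).

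All 18 members assigned as guides to 28S RNA alone were higher in the pellet by 2-fold or more, with a median of 4.26 and a range of 1.41 to 7.76. Snord87, in the span of Snhg6, had the largest fold of all members at 7.76, with 70.5 FPKM in the pellet and 1.10 FPKM in the soluble extract. Snord15b, a U15 RNA in the span of Rps3, combined abundance and fold, with 10644.5 FPKM in the pellet and 672.8 FPKM in the soluble extract (5.74). Snord1b had 1229 FPKM in the pellet and 77.1 FPKM in the soluble extract (5.75), and Snord17 had 2516 FPKM and 203.6 FPKM in the same fractions (5.38). The smallest folds of this group belonged to Snord111 and Snord88a. Snord111 had 21.9 FPKM in the pellet and 27.9 FPKM in the soluble extract (1.41), and Snord88a had 30.2 FPKM in the pellet and 28.4 FPKM in the soluble extract (1.84).

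The U6 guides were more evenly divided between the fractions. Snord7, Snord8 and Snord67 direct methylation of the U6 spliceosomal RNA, by human orthologue, rather than of ribosomal RNA. Snord7 had 196.3 FPKM in the pellet and 186.7 FPKM in the soluble extract (log2 fold 1.83). Snord8 had 239.1 FPKM in the pellet and 168.1 FPKM in the soluble extract (2.26). Snord67 had 200.3 FPKM in the pellet and 154.7 FPKM in the soluble extract (2.13). On the FPKM scale all 3 were within 2-fold, at 0.07, 0.51 and 0.37, and their median of 2.13 lay below the medians of the 18S and 28S guides. The SD over the 3 was 0.22. The 18 members of middle mean level, 155.9 to 910.9 FPKM, include these 3 and had a median of 4.20, and ribosomal guides among them ran from 2.06 for Snord93 to 6.07 for Snord61. The only assigned guide of 5.8S RNA, Snord71, had 15.2 FPKM in the pellet and 17.9 FPKM in the soluble extract (1.52).

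**Figure D3:**
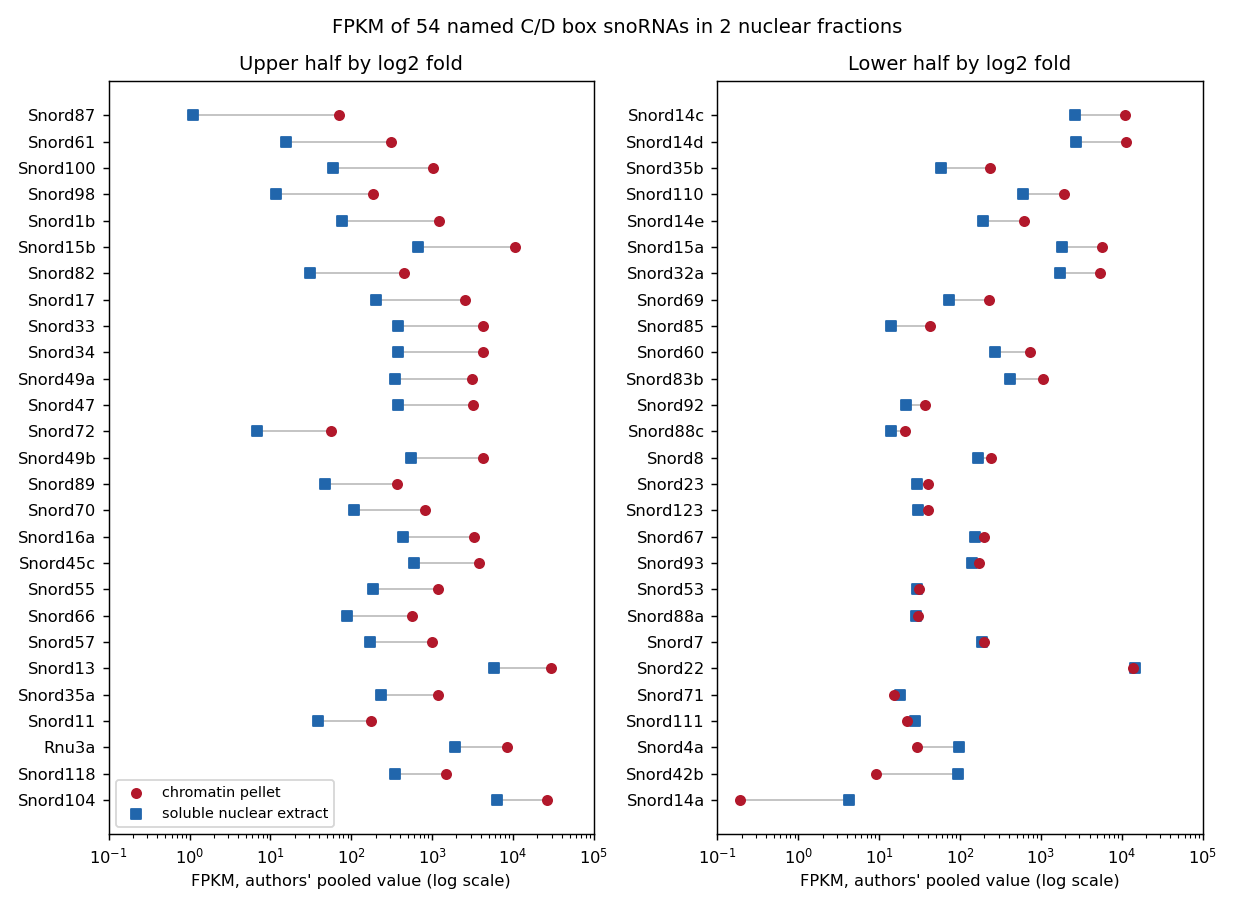
FPKM (horizontal, log scale, the authors' pooled value) of each of the 54 named C/D box snoRNAs in the chromatin pellet (red circles) and the soluble nuclear extract (blue squares), ordered by log2 fold with the largest at the top left. The pair of symbols lies widely apart in the left panel and nearly coincides for Snord22, Snord7, Snord88a and Snord53. It is clearly turned round, with the soluble value higher, for Snord4a, Snord42b and Snord14a.

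Members parted from the genes they lie in. A host could be assigned by span to 48 members, giving 36 host genes, and the sources used here do not say how fragments were divided between a snoRNA and the gene around it. The snoRNA had the higher fold in 46 of the 48 and was at least 2-fold above its host in 39, with a median difference of 4.23 on the log2 scale that is the same on both scales. The hosts themselves had a median log2 fold of 0.26, with 9 of 36 (25%) at least 2-fold higher in the pellet and 10 (27.8%) lower, against 31.9% and 10.5% of all loci. Protein-coding genes as a class had the same median of 0.26. Both exceptions have been named: Snord22 at 1.69 against 3.57 for Snhg1, and Snord14a at -2.76 against -1.80 for Rps13.

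Ribosomal protein genes lay on the soluble side while most snoRNAs in them did not. All 10 such hosts had a log2 fold below 0, 9 of them at least 2-fold lower, with a median of -1.47, while 12 of the 15 snoRNAs in them were higher in the pellet by 2-fold or more. The other 3, Snord14a, Snord42b and Snord4a, are the same 3 of the 54 members that did not pass 2-fold towards the pellet. All 3 lay below the level of their host in both fractions. Their pellet FPKM was 0.01, 0.26 and 0.82 times that of the host, and their soluble FPKM 0.02, 0.23 and 0.23 times. Snord111, Snord71 and Snord88c, in other protein-coding hosts, also lay below the host in both fractions, yet passed 2-fold towards the pellet. Rpl13a, a large subunit protein gene, had 331 FPKM in the pellet and 2952 FPKM in the soluble extract (-1.40). Within it Snord34 had 4232 FPKM in the pellet and 379 FPKM in the soluble extract, and Snord33 had 4199 FPKM in the pellet and 374 FPKM in the soluble extract. Both guides therefore had a higher FPKM than the message in the pellet and a lower one in the soluble extract, with folds of 5.24 each. In all, 26 of the 48 members had a lower soluble FPKM than their host, and 6 had a lower pellet FPKM. The uncertain effective length of short RNAs bears on every such comparison of levels with a host and does not cancel from it.

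Genes of the C/D box particle and the nucleolus were hosts as well. Nop56, a core protein of the particle, had a log2 fold of 0.86, against 4.31 for Snord57 and 3.47 for Snord110 in its span. Nop58, its partner, had 0.27, against 4.68 for Snord70 and 3.90 for Snord11. Nucleolin, a major nucleolar protein, had -0.46 at its gene Ncl, against 5.62 for Snord82. Wdr43, a gene of the small subunit processome, had 0.66, against 2.55 for Snord92 and 1.84 for Snord53. Gnl3, which encodes nucleostemin, had 0.89, against 3.38 for Snord69, and Gltscr2, which encodes a nucleolar protein, had -0.76, against 2.18 for Snord23. These 9 snoRNAs lay above the message of the gene around them by 1.18 to 6.07.

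In a few cases snoRNA and host had nearly the same fold. The difference was 0.05 for Snord93, 0.11 for Snord88a, 0.17 for Snord42b, 0.32 for Snord71 and 0.32 for Snord7. The FPKM of Snord88a, Snord42b and Snord71 was no more than 1.36 times that of the host in either fraction. Their values thus lay close to or under the FPKM of the gene around them. Snord93 and Snord7 had 36.4 and 37.7 times the FPKM of their noncoding hosts in the pellet, ratios that carry the same limit of effective length. Whether host fragments contribute to the values of the scarce members was not tested.

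**Figure D4:**
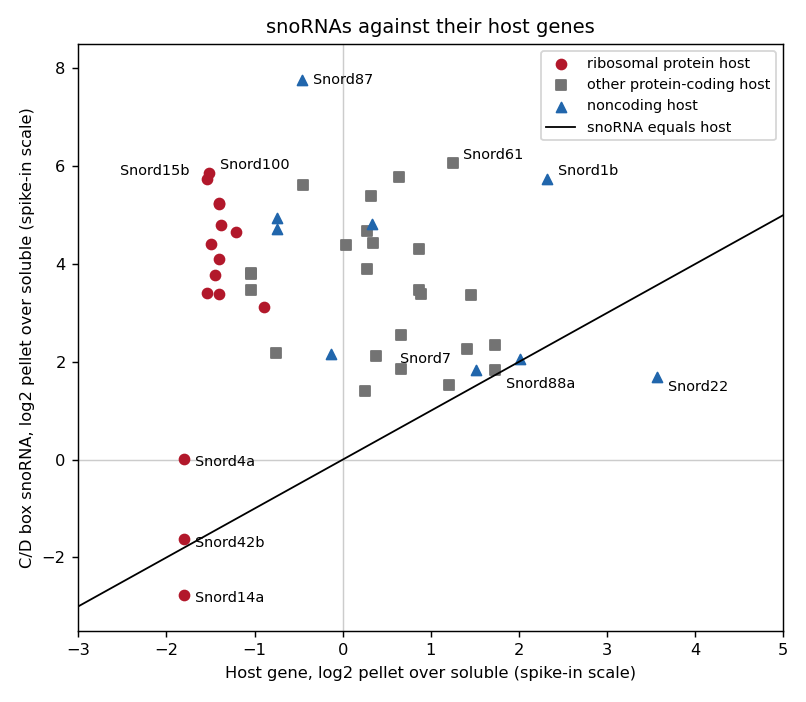
Log2 pellet over soluble of each C/D box snoRNA (vertical) against that of its host gene (horizontal), both on the spike-in scale, for 48 members in 36 hosts, with symbols by host type. Points on the diagonal have equal folds; 46 lie above it, Snord22 and Snord14a lie below it, and the 15 snoRNAs of ribosomal protein genes stand at the left.

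The promoters of these hosts are shown for the tract of C and T by which ribosomal protein genes and several snoRNA host genes are known to start their transcripts, the terminal oligopyrimidine tract. The windows run from 60 bases before to 20 after the RefSeq start on GRCm38.p6, and capitals mark the longest unbroken run of C and T within 20 bases of the start. Rpl13a lies at chr7:45128726-45128805 on the minus strand, Rpl4 at chr9:64173327-64173406 on the plus strand, Rps12 at chr10:23787190-23787269 on the minus strand and Snhg1 at chr19:8723427-8723506 on the plus strand.
Rpl13a: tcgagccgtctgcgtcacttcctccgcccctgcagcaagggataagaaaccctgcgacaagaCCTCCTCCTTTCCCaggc
Rpl4: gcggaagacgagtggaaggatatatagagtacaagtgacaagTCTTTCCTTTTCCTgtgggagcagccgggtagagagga
Rps12: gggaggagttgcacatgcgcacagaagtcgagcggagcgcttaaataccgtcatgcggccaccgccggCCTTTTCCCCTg
Snhg1: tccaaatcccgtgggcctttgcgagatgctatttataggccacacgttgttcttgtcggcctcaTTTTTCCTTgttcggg
The runs were 14 bases in Rpl13a, 14 in Rpl4, 11 in Rps12 and 9 in Snhg1. Counted from the RefSeq start, they began at position 3 in Rpl13a, -18 in Rpl4, 9 in Rps12 and 5 in Snhg1. Whether any of them is the tract itself was not tested. Hosts not printed included some with shorter runs, such as 6 bases in Gas5 and Rpl37 and 3 in Rps3. A run of at least 8 on the coding strand was found in 9 of 28 hosts with a promoter sequence (32.1%), against 4965 of 27025 genes in the promoter table (18.4%). It occurred in 3 of 6 ribosomal protein hosts, 4 of 7 noncoding hosts and 2 of 15 other hosts. RefSeq starts can lie some bases from the true start, so a missing run says only that it was not in this window. The snoRNAs of these promoters did not share a fold, since Snord100 in Rps12 had 5.86 and Snord22 in Snhg1 had 1.69.

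SnoRNAs that lie in the same host still differed. The 4 members in Rpl13a ran from 3.39 (Snord32a) through 4.10 (Snord35a) to 5.24 (Snord33 and Snord34), a range of 1.85. Snord32a, with 5425 FPKM in the pellet and 1748 FPKM in the soluble extract, was the most abundant of the 4 in both fractions. The U15 pair in Rps3 had the widest range, 2.32, with 5.74 for Snord15b and 3.42 for Snord15a. Snord15a had 5698 FPKM in the pellet and 1801 FPKM in the soluble extract, so it was the lower of the pair in the pellet and the higher in the soluble extract. These U15 RNAs span 145 and 148 bases and are related in sequence, and whether fragments were divided between them was not tested. Smaller ranges were found for Snord49a and Snord49b (0.22) and for the U14 RNAs of Hspa8 (0.35), although the U14 RNAs varied 18.1-fold in pellet level. In the Rpl23a pair, Snord4a had 29.3 FPKM in the pellet and 97.8 FPKM in the soluble extract (0.01), and Snord42b was lower by 1.64 on the log2 scale.

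The relation of fold to level depended on which level was used. Across the 54 members the Spearman correlation of fold was 0.48 with the pellet level, 0.11 with the soluble level and 0.42 with the mean of both. Each of these levels is itself part of the fold, and all points come from the same pooled libraries, so the values are descriptions only. Length showed little relation to fold, with a Spearman correlation of -0.13 over the 53 members with a RefSeq span. Those spans ran from 28 to 221 bases with a median of 77, and 47 were under 100 bases.

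Messages of the proteins that build and use C/D box particles did not share the position of the RNAs. Of 32 listed genes, 31 were analysed and passed the level filter. On the spike-in scale 1 passed 2-fold towards the pellet and 2 towards the soluble extract, and the median was -0.31, whereas the shares over all loci were 31.9% and 10.5% and the median of protein-coding genes was 0.26. Without the factor their median was -2.06, and 29 were lower and 0 higher, against 61.2% and 9.66% of all loci, so the balance of these messages depends on the factor. Fbl, which encodes fibrillarin, had 5.13 FPKM in the pellet and 25.05 FPKM in the soluble extract (-0.53). Rrp9, a U3-specific protein gene, had 5.50 FPKM in the pellet and 23.9 FPKM in the soluble extract (-0.37). Of the 5 core genes, which also include Nop56, Nop58 and Nhp2l1, 0 passed 2-fold either way on the spike-in scale.

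The 3 genes that passed 2-fold act in maturation or in the U3 particle. Tgs1, the enzyme that hypermethylates the cap of U3 and U8, had 8.03 FPKM in the pellet and 8.90 FPKM in the soluble extract (1.61, or -0.15 on the FPKM scale). The cap-binding gene Ncbp2 had 4.98 FPKM in the pellet and 34.1 FPKM in the soluble extract (-1.02). Imp3, a protein gene of the U3 particle, had 9.90 FPKM in the pellet and 77.8 FPKM in the soluble extract (-1.22). The highest soluble level in the list was that of Npm1, the nucleolar protein nucleophosmin, with 73.1 FPKM in the pellet and 487.8 FPKM in the soluble extract (-0.98); in the pellet Nop58 was higher, at 88.1 FPKM.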

How the data were processed

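Nuclear RNA was ribo-depleted and made into stranded libraries, per the labels' protocols. The submitters' processing notes name the build mm10 and the tools HISAT2, Cufflinks, Cuffdiff, SAMtools and bedtools, without versions or settings. The authors deposited 1 FPKM value per fraction and locus, a rescaled pellet signal and total signal, their ratio (fold enrichment) and log10 values of both, per the file headers. The 30687 lines held 1945 repeats, which were dropped, and 82 spike-ins. Folds were recomputed from FPKM with the least-squares spike-in factor (Python 3.11.15, pandas 2.3.3) and tested on simulated data. They departed from the deposited ratio of the members by at most 2.8e-07 percent. No pseudocount was needed. With pooled values, counts and medians replaced the planned limma fit. Hosts were the RefSeq (GRCm38.p6) protein-coding or lncRNA gene whose span holds the snoRNA, the most abundant where several did, without strand, which that table lacks. Names followed fixed role, level and fold rules. Members, lists and role groups were chosen with earlier results of these data known.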

Additional observations from a re-analysis of the deposited data

How the results depend on the processing

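No paired analysis was possible because the 3 replicates of each fraction are pooled in 1 value, and for the same reason no replicate could be left out. The median log2 fold of the 54 members was 2.07 without the spike-in factor and 3.61 without RNAs under 80 bases. Snord111 (-0.35), Snord71 (-0.23), Snord22 (-0.063) and Snord4a (0.01 with and -1.74 without the factor) changed sign without the factor. The count of members higher in the pellet fell to 23 without RNAs under 80 bases and to 4 without loci sharing coordinates, as fewer members were counted. The count lower was 1 at a mean of at least 5 FPKM, at 4-fold or without RNAs under 80 bases, and 0 without loci sharing coordinates. The C/D minus H/ACA difference was 0.61 without RNAs under 80 bases. The difference from the host was 4.39 at a mean of at least 5 FPKM. Protein genes of the particle were 0 higher and 29 lower without the factor, and 1 was lower with the median spike-in ratio. Shares of the summed FPKM were 26.6% in the pellet and 8.17% in the soluble extract over protein-coding genes and snoRNAs alone. A pseudocount of 0.1 FPKM moved 2 of 54 member folds by more than the spike-in SD.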

Other observations

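The current gene names identify 2 more loci as C/D box snoRNAs that the table lists under predicted names, so they were not counted among the 54. Gm24489, now Snord80, had 826.5 FPKM in the pellet and 17.2 FPKM in the soluble extract, a log2 fold of 7.34 on the spike-in scale. Gm25206, now Snord59a, had 157.1 FPKM in the pellet and 45.5 FPKM in the soluble extract, a log2 fold of 3.54.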
